A study of Mus musculus with 4 samples.

Results

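The genes described here are 10 cytochrome P450 genes of the mouse intestine: Cyp2c55, Cyp2c65, Cyp2c66, Cyp2f2, Cyp2s1, Cyp2j6, Cyp3a13, Cyp4b1, Cyp4f14 and Cyp27a1. They were taken by symbol from a table of 31227 genes, and all 10 passed the filter on low counts, so each was among the 15838 genes tested. The same table holds 90 other protein-coding cytochrome P450 genes, of which 37 had no count in any library. The 10 were chosen by symbol with their CPM and fold changes in these 4 libraries already known, so their differences between the genotypes are given as a description, with no p-value.

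RNA sequencing was done on colonic epithelial cells of mice 8 to 10 weeks old. One group held 2 libraries from mice with an epithelial knockout of Smad4 (Smad4 KO, replicates 1 and 2), and the other 2 libraries from wild-type mice (WT, replicates 1 and 3). Mice of both genotypes drank 3.5% dextran sulfate sodium (DSS, of 36 to 50 kDa), a polymer that injures the colonic lining, for 5 days, then plain water until day 7, when they were killed, per the treatment protocol. The time label of each sample reads 5 days, and the sources used here do not say how this fits with day 7. The sources used here name neither the promoter behind the deletion nor the mouse each library came from, so the spread between 2 libraries may be technical. Mice that drank plain water throughout were not analysed here, and the values therefore compare genotypes under DSS, not DSS with health.

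Cytochrome P450 enzymes are heme proteins that insert an oxygen atom into fats, sterols, vitamins and foreign chemicals. Most sit in the membrane of the endoplasmic reticulum and take electrons from the reductase encoded by Por, while a few, such as Cyp27a1, sit in mitochondria and take them from a ferredoxin. In the gut lining they are the oxidizing step of defence against chemicals from food and microbes, and they also make and break down signalling lipids from arachidonic acid. Many of their genes lie in tandem clusters of close relatives, each under its own promoter.

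The libraries held 61260099 and 67927291 counts in Smad4 KO and 56018009 and 42577920 in WT. Smad4 itself stood at 51.5 and 41.1 CPM in Smad4 KO and at 152 and 180 CPM in WT, a log2 fold change of -1.84 (SE 0.143; edgeR quasi-likelihood test, adjusted p = 0.00163), so the knockout libraries still held Smad4 reads. CPM are counts scaled to a common library size by edgeR's trimmed mean (TMM), and every fold change below is Smad4 KO over WT from 1 fit across all tested genes. A gene was called changed where its p, adjusted over all tested genes, was under 0.05. Of all tested genes 15.2% were called: 8.83% of the tested genes were higher in Smad4 KO and 6.40% lower.

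The stretch just before the transcription start is shown for the 3 Cyp2c genes, which were higher in both Smad4 KO libraries than in both WT libraries, for their cluster neighbour Cyp2c68, which fell, and for Cyp2f2, which fell furthest of the 10. Each line gives the 250 bases before the start, 5′ to 3′ on the strand of the gene, from RefSeq on GRCm38.p6. Capitals mark TATAAA, the TATA box letters, and AAAGTCC, letters found in binding sites of HNF4 factors. The positions are chr19:39006769-39007018 (plus strand) for Cyp2c55, chr19:39060756-39061005 (plus) for Cyp2c65, chr19:39113648-39113897 (plus) for Cyp2c66, chr19:39741102-39741351 (minus) for Cyp2c68 and chr7:27119705-27119954 (plus) for Cyp2f2.
Cyp2c55: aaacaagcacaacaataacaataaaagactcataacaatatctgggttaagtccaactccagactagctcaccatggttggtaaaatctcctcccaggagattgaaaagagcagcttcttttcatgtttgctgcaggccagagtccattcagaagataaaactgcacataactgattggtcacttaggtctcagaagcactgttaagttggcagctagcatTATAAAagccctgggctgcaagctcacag
Cyp2c65: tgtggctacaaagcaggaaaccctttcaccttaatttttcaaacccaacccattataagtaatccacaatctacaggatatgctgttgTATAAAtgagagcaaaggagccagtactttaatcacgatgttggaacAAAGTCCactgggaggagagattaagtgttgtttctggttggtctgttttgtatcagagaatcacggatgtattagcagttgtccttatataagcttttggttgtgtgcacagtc
Cyp2c66: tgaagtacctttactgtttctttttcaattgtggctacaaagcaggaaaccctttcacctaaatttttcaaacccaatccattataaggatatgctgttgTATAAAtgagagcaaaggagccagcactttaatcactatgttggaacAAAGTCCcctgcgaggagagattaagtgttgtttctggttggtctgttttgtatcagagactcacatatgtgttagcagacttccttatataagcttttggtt
Cyp2c68: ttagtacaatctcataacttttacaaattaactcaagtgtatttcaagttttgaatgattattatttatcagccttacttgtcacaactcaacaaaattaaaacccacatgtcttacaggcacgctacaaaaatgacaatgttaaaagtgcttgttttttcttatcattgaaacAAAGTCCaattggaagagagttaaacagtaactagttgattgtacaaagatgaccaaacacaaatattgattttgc
Cyp2f2: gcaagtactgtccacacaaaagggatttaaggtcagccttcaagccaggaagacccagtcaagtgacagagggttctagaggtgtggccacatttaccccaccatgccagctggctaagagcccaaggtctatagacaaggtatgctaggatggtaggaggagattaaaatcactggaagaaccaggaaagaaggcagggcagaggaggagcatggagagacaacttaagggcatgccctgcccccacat

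In these windows TATAAA began at base -29 of Cyp2c55, at base -162 of Cyp2c65 and at base -150 of Cyp2c66, counted back from the transcription start. AAAGTCC began at base -115 of Cyp2c65, at base -103 of Cyp2c66 and at base -76 of Cyp2c68. Cyp2c65 and Cyp2c66 are close copies: 94.5% of 271 aligned promoter bases were identical, and so were 96.3% of the 1470 coding bases. Cyp2c55 was further off, with 75.8% of coding bases shared with Cyp2c65 and 74.6% with Cyp2c68. Over 300 bases, the 250 shown and 50 after the start, 6 motifs were searched on both strands in all 10 genes, and no match overlapped a match to another motif. TATAAA was present in 3 of the 10, all of them Cyp2c genes, against 13.6% of 32851 RefSeq promoters. AAAGTCC was in 2 of the 10 against 4.21%. CAGAC, the letters of the SMAD binding element, was in 8 of the 10, all but Cyp2f2 and Cyp4f14, against 49.6%. GCGTG, the core read by the aryl hydrocarbon receptor with its partner Arnt, was in none against 32.4%. GTTAAT, part of the HNF1 site, was in none against 7.1%, and TTTATG, the letters of CDX sites, in none against 11.8%. A match of letters is not a binding site, and the lack of a match says only that these letters are not in the window. For Cyp2s1 the RefSeq start lies 388 bases inside the GENCODE gene, so its window does not cover the GENCODE start.

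Cyp2c55 and Cyp2c65 differed by the same factor between the genotypes, and Cyp2c66, with few counts, by a less certain one. Cyp2c55 (chr19:39007019-39042693, plus strand), a colonic enzyme of the mouse that oxidizes arachidonic acid, stood at 930 and 880 CPM in Smad4 KO and at 376 and 377 CPM in WT. Both Smad4 KO libraries were above both WT libraries, with a log2 fold change of 1.26 (SE 0.0526), or 2.40-fold. Its neighbour Cyp2c65 (chr19:39061015-39093944, plus), another gut enzyme of the same subfamily, had 123 and 125 CPM in Smad4 KO and 51.3 and 52.0 CPM in WT. This was again 2.40-fold (log2 fold change 1.26, SE 0.0657). Cyp2c66 (chr19:39113898-39187072, plus), the third gene of the row, was far lower, at 4.39 and 2.80 CPM in Smad4 KO and 1.36 and 0.344 CPM in WT. Its libraries did not overlap between the genotypes, but WT replicate 3 rested on 15 counts and WT replicate 1 on 77, and the log2 fold change of 2.05 (SE 0.655) was 3.36 without WT replicate 1 and 1.41 without WT replicate 3.

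Cyp2c66 shares sequence with its neighbour, which bears on its counts. Of the 100-base stretches in its transcripts 7.35% also occur in Cyp2c65, and of the 50-base stretches 19.5%; the read length is not stated. For Cyp2c65 the shares found in another gene were 7.82% at 100 bases and 20.6% at 50, and for Cyp2c55 0% and 1.13%. The count of Cyp2c66 was 3.58% and 2.24% of that of Cyp2c65 in the Smad4 KO libraries and 2.65% and 0.662% in the WT libraries. The sources used here do not say how reads matching both genes were assigned, and the part of Cyp2c65 reads in the Cyp2c66 count was not tested.

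**Figure D1:**
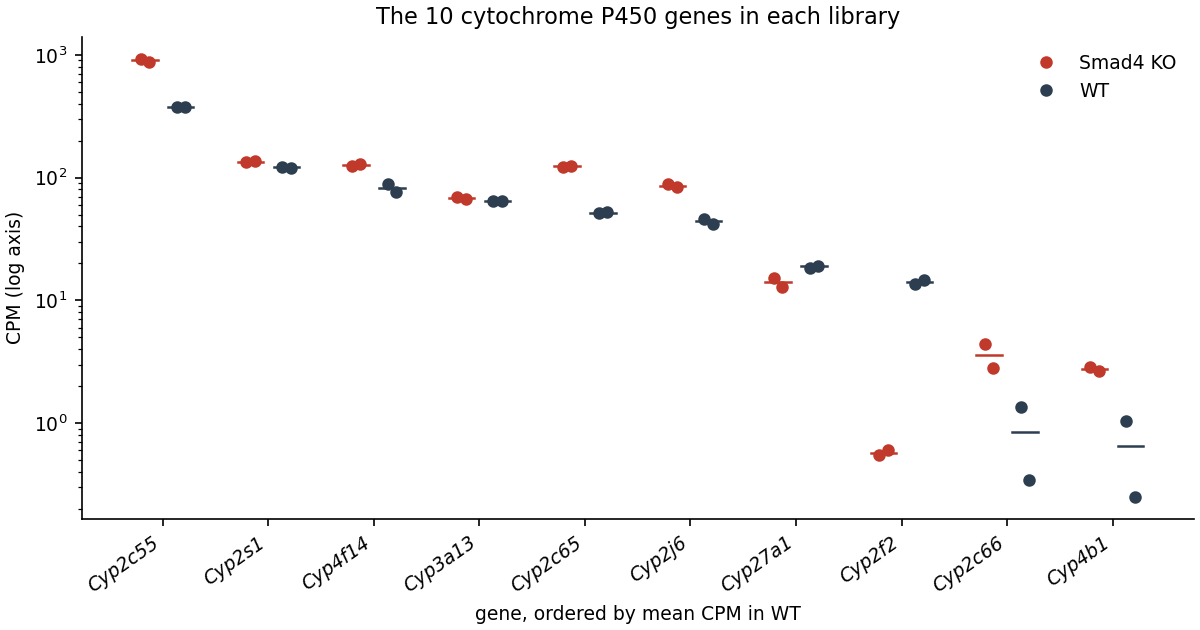
CPM (log axis) of the 10 cytochrome P450 genes in each library, ordered by their mean in WT, with Smad4 KO in red left of WT in dark blue; points are libraries and lines the mean of 2. Cyp2c55 stands above all others in both genotypes, Cyp2f2 shows the widest gap between genotypes, and Cyp2c66 and Cyp4b1 show the widest gaps between the WT libraries.

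Cyp2j6, Cyp4f14 and Cyp4b1 are described next, each with an enzyme that acts on fatty acids. Cyp2j6 (chr4:96516138-96553661, minus), of a subfamily that oxidizes arachidonic acid and linoleic acid, had 88.2 and 83.1 CPM in Smad4 KO and 46.2 and 41.8 CPM in WT. Smad4 KO libraries lay above WT libraries by more than the spread within either genotype, a 1.95-fold difference (log2 fold change 0.96, SE 0.0865). Cyp4f14 (chr17:32905070-32917342, minus), whose enzyme hydroxylates the ends of fatty acids and of leukotriene B, stood at 124 and 128 CPM in Smad4 KO and at 88.3 and 76.9 CPM in WT. The difference was 1.53-fold (log2 fold change 0.61, SE 0.0888), and the WT libraries were the more scattered. Cyp4b1 (chr4:115624725-115647723, minus), which oxidizes fatty acids and some plant toxins, was scarce, with 2.84 and 2.64 CPM in Smad4 KO and 1.04 and 0.252 CPM in WT. WT replicate 3 rested on 11 counts, and the log2 fold change of 2.06 (SE 0.649) was 3.42 without WT replicate 1 and 1.40 without WT replicate 3.

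Cyp2s1 and Cyp3a13 were the genes with the smallest log2 fold changes of the 10. Cyp2s1 (chr7:25802475-25816913, minus), a target of the aryl hydrocarbon receptor in surface epithelia, had 133 and 136 CPM in Smad4 KO and 123 and 119 CPM in WT. That is 1.11-fold (log2 fold change 0.15, SE 0.0634). Cyp3a13 (chr5:137892932-137921619, minus), the gut member of the drug-metabolizing Cyp3a subfamily, had 70.0 and 66.8 CPM in Smad4 KO and 64.9 and 64.8 CPM in WT, or 1.06-fold (log2 fold change 0.08, SE 0.0709). Its libraries did not overlap in CPM, but on the TPM scale defined below they did, at 70.8 and 67.9 in Smad4 KO and 69.4 and 72.9 in WT.

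Lower in Smad4 KO were Cyp2f2 and Cyp27a1. Cyp2f2 (chr7:27119909-27133660, plus), known from the mouse lung as the enzyme that makes naphthalene toxic to club cells, had 0.549 and 0.600 CPM in Smad4 KO and 13.6 and 14.7 CPM in WT. Those values came from 33 and 40 counts in Smad4 KO and from 773 and 640 in WT. The gene was 24.5-fold lower in Smad4 KO (log2 fold change -4.62, SE 0.187), the widest difference among the 10. An antisense gene model, Gm15883, overlaps it and had 0 and 0 counts in Smad4 KO and 8 and 5 in WT. The strand setting of the count is not stated, so reads from the overlap, 4.05% of the 100-base stretches of Cyp2f2 and 9% of its 50-base ones, cannot be told apart. Cyp27a1 (chr1:74713574-74737892, plus), the mitochondrial sterol hydroxylase of bile acid synthesis, had 15.3 and 12.8 CPM in Smad4 KO and 18.5 and 19.2 CPM in WT. It was 1.35-fold lower in Smad4 KO (log2 fold change -0.43, SE 0.132), with -0.30 without Smad4 KO replicate 2 and -0.56 without Smad4 KO replicate 1.

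In all 10 genes the libraries of the genotypes did not overlap in CPM, 8 being higher and 2 lower in Smad4 KO. The same held for 59.4% of all tested genes, 31.0% higher and 28.4% lower, so a lack of overlap in 2 against 2 libraries was common. By the adjusted p over all genes, 4 of the 10 were called higher (Cyp2c55, Cyp2c65, Cyp2j6 and Cyp4f14; background 8.83%) and 1 lower (Cyp2f2; background 6.40%). Nothing is read from these counts, since the 10 were chosen with these differences known. With either Smad4 KO library left out Cyp4f14 was no longer called, and without WT replicate 1 Cyp2c66 and Cyp4b1 were called higher. The median log2 fold change of the 10 was 0.79 and that of all tested genes 0.01. In a bulk sample, fewer cells that carry a transcript and less of it per cell cannot be told apart.

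Levels of different genes were set side by side as TPM, counts per length of annotated exons scaled to the same sum in each library. In Smad4 KO the order was Cyp2c55 (1360 ± 47.8 TPM, SD, n = 2 here and below), Cyp2c65 (193 ± 3.35), Cyp4f14 (156 ± 3.84), Cyp2s1 (81.5 ± 1.36), Cyp2j6 (71.2 ± 2.70) and Cyp3a13 (69.4 ± 2.03). Below these came Cyp27a1 (19.3 ± 2.37 TPM), Cyp2c66 (5.54 ± 1.71), Cyp4b1 (3.64 ± 0.181) and Cyp2f2 (0.850 ± 0.056). Of neighbours in that order only Cyp2j6 and Cyp3a13 overlapped. In WT Cyp2c55 again led (613 ± 22.6 TPM), followed by Cyp4f14 (111 ± 6.90), Cyp2c65 (86.9 ± 3.85), Cyp2s1 (79.3 ± 0.733), Cyp3a13 (71.1 ± 2.47) and Cyp2j6 (39.5 ± 1.40). The last 4 were Cyp27a1 (28.1 ± 1.63 TPM), Cyp2f2 (22.7 ± 1.99), Cyp2c66 (1.40 ± 1.14) and Cyp4b1 (0.915 ± 0.768), and the last pair overlapped. Cyp2f2 thus took the lowest place of the 10 in Smad4 KO, below the scarce Cyp2c66 and Cyp4b1, and stood above both in WT. Dividing by the longest transcript in place of all exons put Cyp2s1 in second place in WT (98.2 TPM, against 95.4 for Cyp4f14 and 68.9 for Cyp2c65).

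The 10 genes made up 72.5% and 70.9% of all cytochrome P450 TPM in the Smad4 KO libraries and 47.4% and 47.8% in the WT libraries. Most of that was Cyp2c55, which alone held 50.7% and 48.8% in Smad4 KO and 27.3% and 28.1% in WT and ranked first of all 100 P450 genes. Cyp2c65 held 6.92% and 7.18% in Smad4 KO and 3.85% and 4.0% in WT. Summed over all P450 genes, the level was 2734 ± 24.2 TPM in Smad4 KO and 2213 ± 36.8 TPM in WT. Genes of the Cyp2d subfamily moved the other way, with 11.7% and 12.5% of P450 TPM in Smad4 KO and 27.1% and 26.5% in WT.

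**Figure D2:**
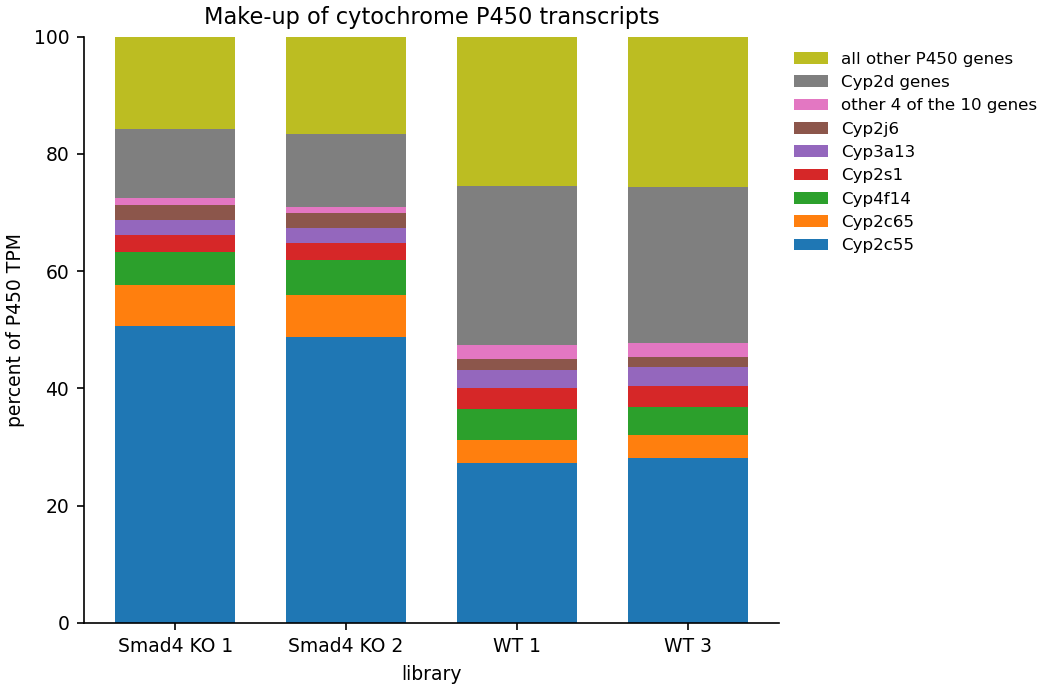
Percent of all cytochrome P450 TPM taken by single genes and groups in each of the 4 libraries, with Smad4 KO libraries on the left. The blue segment, Cyp2c55, fills 50.7% and 48.8% of the Smad4 KO bars and 27.3% and 28.1% of the WT bars, and the grey Cyp2d segment is the wider one in WT.

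Among the other P450 genes more fell than rose in Smad4 KO. These are the genes left after the 10 were chosen with their fold changes known, so the balance here depends in part on that choice. Of the 90, 30 could be tested. Of these 3 rose, 8 fell and 19 did not pass, where 8.83% of all tested genes were called higher and 6.40% lower. Their median log2 fold change was -0.60, against 0.01 for all tested genes. Without Smad4 KO replicate 1, 0 rose and 5 fell, and without Smad4 KO replicate 2, 1 rose. Among those that fell was Cyp2d12, at 3.75 ± 0.215 CPM in Smad4 KO and 33.1 ± 0.667 CPM in WT, 8.82-fold lower (edgeR adjusted p = 0.000245). Cyp2d22 fell 2.1-fold, to 9.98 ± 0.0988 CPM in Smad4 KO against 21.0 ± 0.312 CPM in WT (adjusted p = 0.00361). Cyp2d34, the second most abundant P450 gene by TPM, stood at 198 ± 15.4 CPM in Smad4 KO and 319 ± 6.82 CPM in WT, 1.61-fold lower (adjusted p = 0.00443). Cyp51, the sterol demethylase of cholesterol synthesis, was 1.18-fold lower, at 190 ± 1.40 CPM in Smad4 KO and 224 ± 4.32 CPM in WT (edgeR adjusted p = 0.0485). Cyp51 was not called with no low-count filter, nor without WT replicate 3 or either Smad4 KO library. Its log2 fold change was -0.30 to -0.22 over all alternatives. Grouped after their values were seen, 5 of the 7 tested Cyp2d genes fell and none rose, and their summed level was 332 ± 12.4 TPM in Smad4 KO and 594 ± 0.375 TPM in WT. Some of them share sequence: 11.7% of the 100-base stretches of Cyp2d10, and 35.8% of its 50-base ones, occur in another gene.

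Those that rose were 3. Cyp3a44, a relative of Cyp3a13, had 3.19 ± 0.480 CPM in Smad4 KO and 0.423 ± 0.0501 CPM in WT, 7.52-fold higher (edgeR adjusted p = 0.00591). It was not called without Smad4 KO replicate 1, and its log2 fold change was 2.75 to 3.06 with 1 library left out. Of the 100-base stretches of Cyp3a44 5.37%, and of its 50-base ones 26.5%, occur in another gene. Cyp2j9, next to Cyp2j6, had 1.77 ± 0.249 CPM in Smad4 KO and 0.444 ± 0.0538 CPM in WT (3.99-fold, adjusted p = 0.0317; not called with any 1 library left out, at up to 0.230). Cyp4f40, near Cyp4f14, had 133 ± 3.59 CPM in Smad4 KO and 107 ± 1.85 CPM in WT (1.24-fold, edgeR adjusted p = 0.0329). Cyp4f40 was not called with library totals in place of TMM, nor without WT replicate 1 or either Smad4 KO library. Its log2 fold change was 0.26 to 0.35 over all alternatives.

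**Figure D3:**
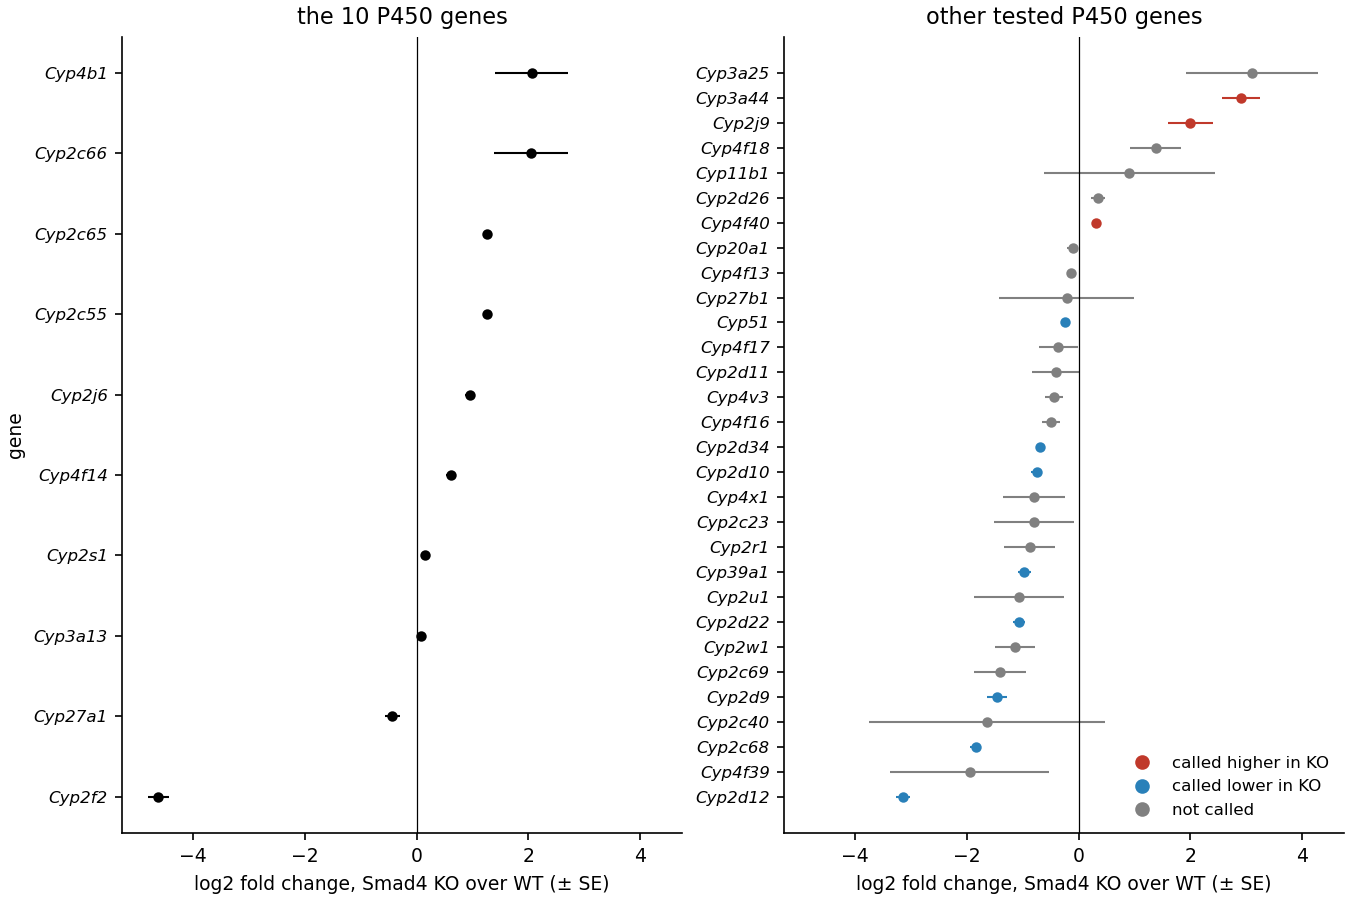
Log2 fold change, Smad4 KO over WT, with its SE for the 10 genes (left, in black with no call marked) and for the 30 other tested P450 genes (right, coloured by call). On the left Cyp2f2 lies at -4.62 and Cyp4b1 and Cyp2c66 carry the widest error bars; on the right 8 genes are called lower and 3 higher.

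Most P450 genes that sit beside the 10 had few or no counts. Within 1 Mb of the 10 genes lie 45 other P450 genes, of which 24 had no count in any library and 10 could be tested. Of these 10, Cyp2j9 and Cyp4f40 rose, Cyp2c68 fell and 7 did not pass. In the Cyp2c cluster on chromosome 19 the 3 genes described stand in a row on the plus strand, and 7 of the 11 neighbours (Cyp2c29, Cyp2c37, Cyp2c38, Cyp2c39, Cyp2c50, Cyp2c54 and Cyp2c70) had no count in any library. At these depths 3 counts stand for 0.0450 to 0.0499 CPM in Smad4 KO and 0.0529 to 0.0688 CPM in WT, the limit that a count of 0 allows. Cyp2c68 (chr19:39688834-39741054, minus) had 12.7 and 13.4 CPM in Smad4 KO and 45.7 and 47.6 CPM in WT, 3.58-fold lower (log2 fold change -1.84, SE 0.0984, adjusted p = 0.000557). It lies in the same cluster as Cyp2c55 and Cyp2c65 and moved opposite to them. Of its 100-base stretches 16.7%, and of its 50-base ones 35.6%, also occur in Cyp2c40, which had 18 and 0 counts in Smad4 KO and 52 and 0 in WT, so the split of reads between them is uncertain.

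**Figure D4:**
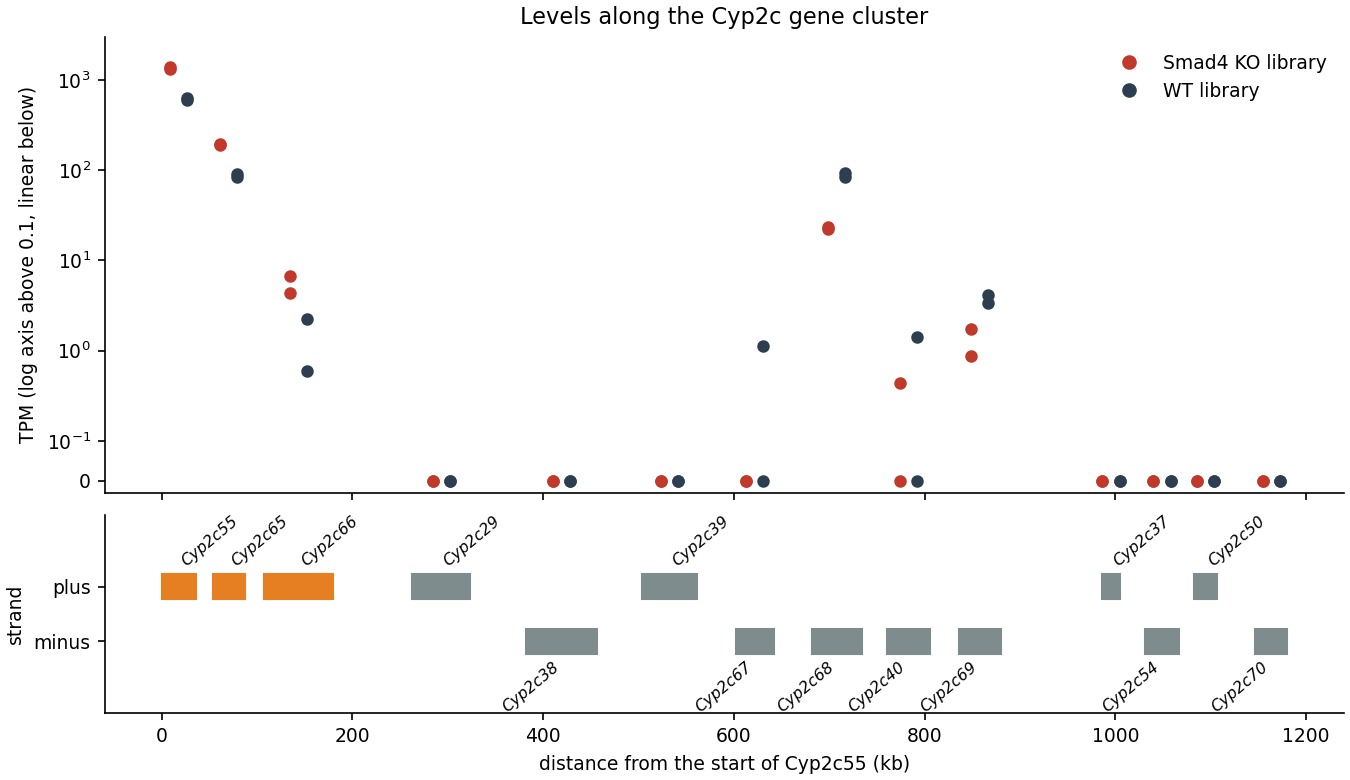
TPM in each library (log axis above 0.1, linear below) along the Cyp2c cluster by distance from the start of Cyp2c55 in kb, Smad4 KO left of WT for each gene, with the gene models below by strand (orange for the 3 genes described, grey for the neighbours). Cyp2c55, Cyp2c65 and Cyp2c66 are higher in Smad4 KO, Cyp2c68 is lower, and 7 neighbours lie at 0 in all 4 libraries.

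Genes that work with P450 enzymes were counted over 6 lists. Beside these lists and the marker lists further below, 8.83% of all tested genes were called higher and 6.40% lower. Among the 10 electron donors tested, 2 were higher, 1 was lower and 7 did not pass (median log2 fold change 0.01). Por, the reductase that feeds the microsomal P450 enzymes, was 1.25-fold higher, at 161 ± 0.358 CPM in Smad4 KO and 129 ± 1.32 CPM in WT (adjusted p = 0.0247). Pgrmc1, a heme-binding partner of P450 enzymes, had 103 ± 0.486 CPM in Smad4 KO and 81.7 ± 5.33 CPM in WT (1.26-fold, adjusted p = 0.0438), and Cyb5b, an outer mitochondrial cytochrome, had 381 ± 3.02 CPM in Smad4 KO and 447 ± 7.41 CPM in WT (1.17-fold lower, adjusted p = 0.0403). None of the 3 was called with either Smad4 KO library left out, nor Pgrmc1 and Cyb5b without WT replicate 3. Pgrmc1 was also not called with library totals in place of TMM. With 1 library left out the log2 fold change was 0.31 to 0.33 for Por, 0.27 to 0.39 for Pgrmc1 and -0.26 to -0.21 for Cyb5b. Of 12 heme genes 1 rose, 1 fell and 10 did not pass (median -0.06). Alas1, the first enzyme of heme synthesis, had 202 ± 5.27 CPM in Smad4 KO and 152 ± 10.4 CPM in WT (1.33-fold, adjusted p = 0.0218, up to 0.135 with a Smad4 KO library left out). Urod, a later step, was 1.83-fold lower, at 13.4 ± 0.240 CPM in Smad4 KO and 24.6 ± 0.871 CPM in WT (adjusted p = 0.00606, and 0.0575 without Smad4 KO replicate 2).

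Transcription factors that control P450 genes split evenly, with 3 of 20 higher, 3 lower and 14 not passing (median log2 fold change -0.02; 1 higher and 1 lower without Smad4 KO replicate 2). Vdr, the vitamin D receptor, was 1.56-fold lower, at 241 ± 3.90 CPM in Smad4 KO and 376 ± 5.03 CPM in WT (edgeR adjusted p = 0.00205). Nr1h4, the bile acid receptor FXR, was 1.64-fold higher, at 115 ± 3.49 CPM in Smad4 KO and 70.0 ± 1.96 CPM in WT (adjusted p = 0.00312). Nr1h3, an oxysterol receptor, had 9.98 ± 0.657 CPM in Smad4 KO and 18.2 ± 1.28 CPM in WT (1.82-fold lower, adjusted p = 0.0115, up to 0.0870 with a Smad4 KO library left out). Pparg, Ppard and Hnf4a lie outside the rule for named genes and were chosen after their values were seen. Pparg rose 1.38-fold (edgeR adjusted p = 0.0181) and Ppard 1.45-fold (edgeR adjusted p = 0.0271). Hnf4a was 1.17-fold lower (edgeR adjusted p = 0.0444). Nr1i2, the drug-sensing receptor PXR known to drive Cyp3a genes, was likewise chosen after its values were seen, at 74.0 ± 2.71 CPM in Smad4 KO and 75.1 ± 4.24 CPM in WT (adjusted p = 0.894).

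Enzymes that take over the products of P450 oxidation, the conjugating enzymes, had 2 of 27 higher, 5 lower and 20 not passing (median log2 fold change -0.04; 1 higher and 1 lower without Smad4 KO replicate 2). Sult1a1, a sulfotransferase for phenols, was 7.5-fold lower, at 22.5 ± 1.44 CPM in Smad4 KO and 169 ± 17.3 CPM in WT (adjusted p = 0.000229). Ugt2b34, a glucuronosyltransferase, was 1.38-fold lower, at 248 ± 0.296 CPM in Smad4 KO and 343 ± 12.9 CPM in WT (adjusted p = 0.00679, up to 0.0727 with a Smad4 KO library left out). Gstt1, a glutathione transferase, had 9.26 ± 0.760 CPM in Smad4 KO and 18.1 ± 1.29 CPM in WT (1.96-fold lower, adjusted p = 0.00918, and 0.0699 without Smad4 KO replicate 2). The 2 that rose, named after their values were seen, were Ugt1a1 (2.17-fold) and Gsta1 (1.76-fold).

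Other oxidizing and hydrolysing enzymes moved in both directions, with 7 of 23 higher, 5 lower and 11 not passing (median log2 fold change 0.12; 3 higher and 3 lower without Smad4 KO replicate 1). Adh1, an alcohol dehydrogenase, was 5.28-fold lower, at 125 ± 1.54 CPM in Smad4 KO and 660 ± 4.45 CPM in WT (adjusted p = 5.8e-05). Aldh2, which clears acetaldehyde, was 1.78-fold lower, at 412 ± 6.31 CPM in Smad4 KO and 733 ± 11.9 CPM in WT (adjusted p = 0.000717). Ces2e, an intestinal carboxylesterase, was 1.73-fold higher, at 334 ± 10.9 CPM in Smad4 KO and 193 ± 7.06 CPM in WT (adjusted p = 0.00169). The other 3 that fell, named after their values were seen, were the flavin monooxygenases Fmo1 (13.6-fold lower) and Fmo4 (2.76-fold lower) and the carbonyl reductase Cbr1 (1.57-fold lower).

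Transporters of drugs and bile acids had 5 of 13 higher, 1 lower and 7 not passing (median log2 fold change 0.25; 2 higher and 0 lower without Smad4 KO replicate 2). Slc10a2, the sodium-driven bile acid importer best known from the ileum, was 11.9-fold higher, at 48.9 ± 1.51 CPM in Smad4 KO and 4.08 ± 0.740 CPM in WT (adjusted p = 0.000347). Both subunits of the basal bile acid exporter rose as well. Slc51b had 54.6 ± 0.175 CPM in Smad4 KO and 26.4 ± 4.21 CPM in WT (2.07-fold, adjusted p = 0.00699), and Slc51a 25.2 ± 1.58 CPM in Smad4 KO and 10.3 ± 2.53 CPM in WT (2.45-fold, adjusted p = 0.0118, and 0.0660 without Smad4 KO replicate 2). Fabp6, the ileal bile acid binding protein and the 1 gene that fell, was named after its values were seen (6.0-fold lower).

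**Figure D5:**
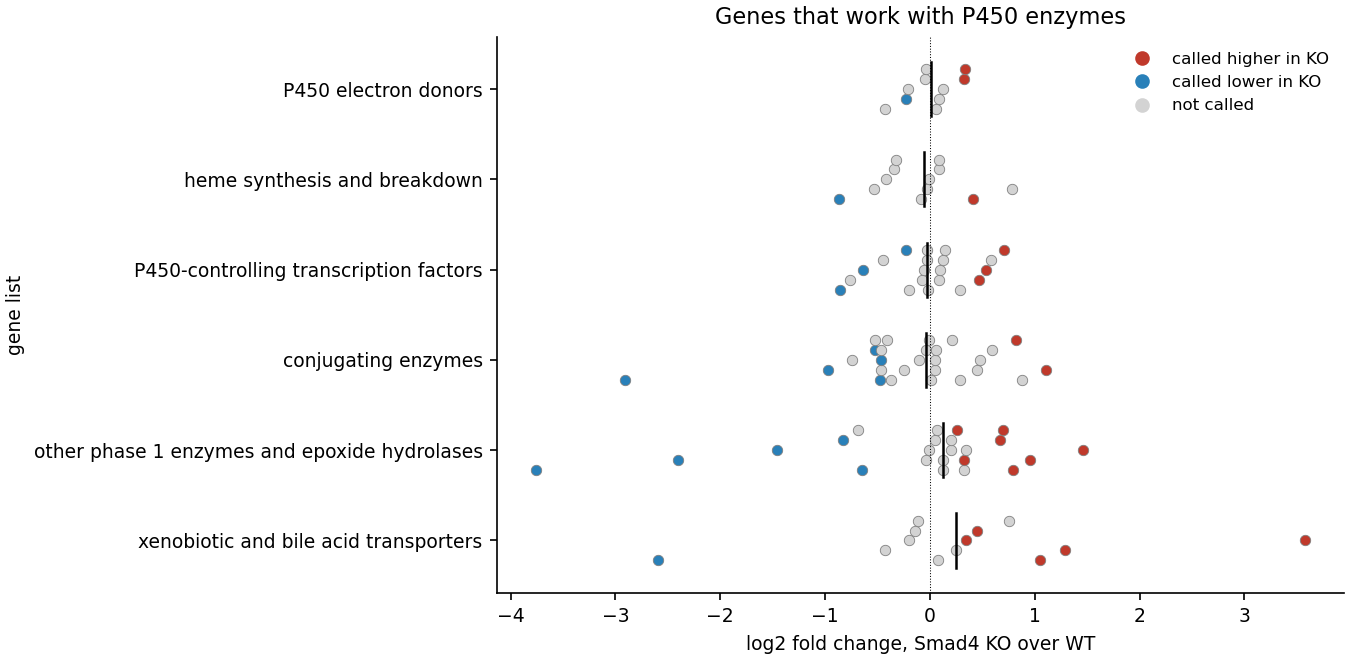
Log2 fold change, Smad4 KO over WT, of each tested gene in the 6 lists of genes that work with P450 enzymes; red points were called higher, blue lower and grey not called, and black bars are the list medians. The medians lie between -0.06 and 0.25, and calls fall on both sides of 0 in every list.

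No marker of absorptive colonocytes, goblet cells or the distal gut lacked counts in all 4 libraries, and the markers of these cells differed between the genotypes. All 8 distal gut Hox genes fell, with a summed level of 151 and 153 CPM in Smad4 KO and 630 and 662 CPM in WT. Hoxb13, the highest of them, had 30.0 ± 1.42 CPM in Smad4 KO and 289 ± 11.5 CPM in WT (9.63-fold lower, adjusted p = 7.1e-05). Of 15 absorptive colonocyte markers 8 rose and 3 fell, with sums of 10556 and 10539 CPM in Smad4 KO and 8354 and 7949 CPM in WT. Car1, the carbonic anhydrase that is the highest of them, was 2.31-fold higher (edgeR adjusted p = 0.000515). It had 2607 ± 33.2 CPM in Smad4 KO and 1131 ± 86.8 CPM in WT. The 3 that fell, named after their values were seen, were Aqp8 (3.37-fold lower), Slc5a8 (2.42-fold lower) and Slc26a3 (2.06-fold lower). Of 11 goblet cell markers 4 rose and 3 fell, with sums of 25690 and 25702 CPM in Smad4 KO and 26659 and 26593 CPM in WT. The highest of them in CPM was Muc2, the gel-forming mucin, which rose (14247 ± 63.7 CPM in Smad4 KO and 9126 ± 259 CPM in WT). In TPM, averaged over all 4 libraries, Zg16 was higher (5920, against 5073 for Muc2), and it was not called. Fcgbp, a mucus protein, fell (4595 ± 101 CPM in Smad4 KO and 9119 ± 108 CPM in WT). Clca1 fell as well (2142 ± 61.2 CPM in Smad4 KO and 4035 ± 68.8 CPM in WT). Fcgbp, Clca1 and Zg16 were named after their values were seen. Neutrophil markers were higher in Smad4 KO, 7 of 9 tested having risen and none fallen, with sums of 446 and 434 CPM in Smad4 KO and 130 and 104 CPM in WT. Ly6g gave most of this sum (324 ± 7.53 CPM in Smad4 KO and 105 ± 16.2 CPM in WT), and Camp had no count. The part of these differences in those of the P450 genes was not tested.

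Markers of 2 cell types of other organs known for P450 enzymes were also counted. Of 12 hepatocyte markers Serpina1a, Fgb, Ahsg and Cyp2e1 had no count in any library, and of the 6 tested 1 rose and 2 fell. Their sum was 147 and 144 CPM in Smad4 KO and 67.2 and 68.1 CPM in WT. Tat, a tyrosine aminotransferase, gave most of it and rose (139 ± 2.28 CPM in Smad4 KO and 51.4 ± 1.41 CPM in WT), while Ttr, named after its values were seen, fell (4.12 ± 0.533 CPM in Smad4 KO and 12.2 ± 0.687 CPM in WT). Of 6 airway club cell markers, the cells that carry most Cyp2f2 in the mouse lung, Scgb3a2, Sftpd and Sftpb had no count. Their sum was 6.67 and 6.60 CPM in Smad4 KO and 1.09 and 0.642 CPM in WT. Chil1 gave most of it (6.57 ± 0.0290 CPM in Smad4 KO and 0.674 ± 0.0446 CPM in WT), with 0.388 CPM of Scgb3a1 in WT replicate 1.

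Of the remaining lists, macrophage markers had 2 of 10 higher (Lyz2 and Csf1r) and none lower, with sums of 177 and 172 CPM in Smad4 KO and 177 and 195 CPM in WT, most of it Cd14 (135 ± 2.04 CPM in Smad4 KO and 170 ± 15.5 CPM in WT). Fibroblast markers had 2 of 7 higher (Dcn and Fbln1) and 1 lower (Col6a3), with sums of 56.6 and 62.8 CPM in Smad4 KO and 54.3 and 59.4 CPM in WT. T cell markers had 1 of 7 higher (Cd4), with sums of 13.6 and 13.4 CPM in Smad4 KO and 6.45 and 7.62 CPM in WT. Cd4 rested on 24 and 28 counts in Smad4 KO and 0 and 0 in WT (edgeR adjusted p = 0.0456). Lck was the highest of the T cell markers in the mean over all 4 libraries. It had 3.76 ± 0.823 CPM in Smad4 KO and 2.95 ± 0.137 CPM in WT. No marker of B and plasma cells, endothelial cells or smooth muscle passed, of 2, 3 and 5 tested. Their highest genes in CPM, Ms4a1, Vwf and Tagln, averaged at most 5.17 CPM in either genotype. Lyz2, Csf1r, Dcn, Col6a3 and Cd4 were named after their values were seen.

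For each of the 10 genes the nearest profile was sought among up to 10487 protein-coding genes with a mean of at least 5 CPM, as the Euclidean distance between log2(CPM + 1) values centred over the 4 libraries. Cyp2c55 lay nearest to Fkbp5 (distance 0.0172), a steroid-induced chaperone with 205 and 197 CPM in Smad4 KO and 83.9 and 83.8 CPM in WT. Cyp2c65 lay nearest to Tead4 (0.0401), a DNA-binding partner of Yap with 12.6 and 12.4 CPM in Smad4 KO and 4.64 and 4.84 CPM in WT. Cyp2j6 lay nearest to Ier3 (0.0416) and Cyp4f14 to Pitpnm2 (0.0369). Cyp2f2 lay nearest to Hoxb13 (0.108), which had 31.0 and 29.0 CPM in Smad4 KO and 281 and 297 CPM in WT. In the fit, however, Cyp2f2 was 24.5-fold lower and Hoxb13 9.63-fold lower in Smad4 KO. Adding 1 to the CPM narrows the differences of genes with low CPM, also of partners such as Tead4. It does so most for genes with values below 1 CPM, here Cyp2f2, Cyp2c66 and Cyp4b1. Nearness thus does not mean an equal fold change, least of all for these 3 genes. Cyp2c66 and Cyp4b1 both lay nearest to the same gene, Arl14, at 0.303 and 0.175, the widest distances of the 10. Cyp2s1, Cyp3a13 and Cyp27a1, which differed least, lay nearest to Epha1 (0.0123), Gtf3c2 (0.0125) and Mcm9 (0.0150). A likeness over 4 libraries in 2 groups is a description of these libraries.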

How the data were processed

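RNA-seq counts of colonic epithelial cells from DSS-treated mice were used, with 2 Smad4 KO and 2 WT libraries. The authors deposited whole-number counts per Ensembl gene ID, not normalized. Per the submitters' processing notes, StringTie 1.3.3b, SAMtools 1.9, HISAT2 2.1.0 and FastQC (listed as 0.19.7) were used on build GRCm38. The sources used here do not say which tool counted, on which annotation, with what strand setting, or how it treated reads shared by genes. Per the labels' protocols, total RNA (1.5 µg) was primed with random hexamers.

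Symbols and positions came from GENCODE M21 and named 31207 of 31227 rows. Genes kept by filterByExpr went into edgeR 4.0.16 under R 4.3.3 (TMM, then glmQLFit and glmQLFTest on genotype alone), with Benjamini-Hochberg adjustment over 15838 genes (biological coefficient of variation 0.196). The script was tested on simulated data. The 10 genes, the gene lists and the tests were chosen with earlier results of these data known. Named besides the 10 were up to 4 risen and 4 fallen other P450 genes with the smallest p, and the 3 highest in TPM. Also named were up to 3 called genes of each pathway list by p and the highest gene of each marker list by mean CPM. Smad4 and the nearest profile of each of the 10 were named too. Alternatives were 3 other normalizations, 2 other filters, DESeq2 1.42.0, limma-voom (limma 3.58.1), and omission of the 20 genes with most counts or of any 1 library. Promoters came from RefSeq (GRCm38.p6), and all 10 genes matched. The RefSeq start lay 388 bases from the GENCODE start in Cyp2s1, 46 in Cyp2f2, 39 in Cyp27a1 and 47 in Cyp2c68. In the other genes searched the distance was at most 10 bases. The 50 bases after the start were not found whole in a GENCODE transcript for Cyp2c65, Cyp27a1 and Cyp2c68. Likeness between genes was measured on coding sequence; proteins were not analysed here. Limits from 3 counts cover counting error only.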

Additional observations from a re-analysis of the deposited data

How the results depend on the processing

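The signs of the log2 fold changes of all 10 P450 genes held under the 12 alternatives, and the median of all tested genes moved between -0.04 and 0.02. Cyp2c55, Cyp2c65, Cyp2j6 and Cyp2f2 stayed called under each of the 12. Cyp2c66 and Cyp4b1 were called by DESeq2 and without WT replicate 1, and not otherwise. Nothing is read from these calls either, since the 10 were chosen with these differences known. In counts without division by length, the 10 genes held 66.3% of P450 counts in Smad4 KO and 43.3% in WT. DESeq2 called 1524 of all genes lower. With library totals in place of TMM, 1 electron donor and 1 cluster neighbour were higher, and 2 heme genes, 8 conjugating enzymes, 2 transporters and 1 macrophage marker lower. With no low-count filter, 4 conjugating enzymes were higher, and 2 heme genes and 1 macrophage marker lower. DESeq2 called 5 conjugating enzymes higher, and 3 heme genes, 10 conjugating enzymes, 2 transporters, 2 cluster neighbours and 1 macrophage marker lower. Limma-voom called 4 conjugating enzymes higher, and 2 transporters and 1 macrophage marker lower. The cause of these shifts was not tested.

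Leaving out a library leaves a genotype with 1 sample, which is then assumed to vary like the other genotype, and fewer samples carry the test. Calls over all genes then ranged from 547 to 1504 higher and from 425 to 1069 lower. The low ends came without a Smad4 KO library (553 higher and 425 lower without replicate 1, 547 and 428 without replicate 2). Other P450 genes ranged from 0 to 3 higher and 5 to 8 lower, cluster neighbours from 0 to 1 higher and 1 to 2 lower, electron donors from 0 to 2 higher and 0 to 1 lower, and heme genes from 0 to 2 in both directions. Transcription factors ranged from 1 to 4 higher and 1 to 5 lower, conjugating enzymes from 1 to 6 in both directions, other oxidizing and hydrolysing enzymes from 3 to 6 in both directions, and transporters from 2 to 5 higher and 0 to 2 lower. Macrophage markers ranged from 1 to 5 higher and 0 to 1 lower. The low ends of these lists came without a Smad4 KO library, that of higher cluster neighbours also without WT replicate 1 and that of lower macrophage markers also without WT replicate 3. Of the high ends, those of heme genes (2 and 2), conjugating enzymes (6 higher), transporters (2 lower) and macrophage markers (5 and 1) came without WT replicate 1, and those of transcription factors (5 lower) and cluster neighbours (2 lower) without WT replicate 3. No paired analysis was possible because the genotypes share only replicate number 1. With 2 libraries per genotype, differences of scarce genes such as Cyp2c66 and Cyp4b1 (11 to 264 counts) are the least certain.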
